A study of Mus musculus with 18 samples.

Results

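The genes described here are S100a8, S100a9, C3, Hp, Csf3r, Wfdc17, Camp, Ngp, Ltf and Retnlg, 10 of the 22708 genes in a table of RNA sequencing values from mouse small intestinal eosinophils. They were chosen by name with earlier results of these data known. S100a8, S100a9, C3, Hp, Csf3r and Wfdc17 were selected on being higher in the samples labelled Ahrr-KO than in wild-type (WT) samples, and Camp, Ngp, Ltf and Retnlg were set beside them as genes typical of neutrophils. The difference between Ahrr-KO and WT in these genes is therefore given as a description with no test.

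The samples were 18 bulk RNA libraries of eosinophils sorted as CD11b+MHC-II-SiglecF+SSChi cells, with 6 from WT, 6 from Ahr-KO and 6 from Ahrr-KO mice of strain C57/BL6, each group made up of 3 females (F1 to F3) and 3 males (M1 to M3). Ahr encodes AHR, the aryl hydrocarbon receptor, which turns on genes when it binds a ligand, and Ahrr encodes the AHR repressor, itself an AHR target. The cells were taken straight to RNA isolation with no treatment in culture, and the Ahr-KO and WT mice were neither littermates nor housed together. The methods give a range of ages for all mice of the study and say that mice were matched for age and sex within experiments. The age of the mouse behind each sample and the Ahrr allele were not given in the sources used here, and the markers of the sort do not name Ly6G, the usual surface marker of mouse neutrophils. Total counts ranged from 3842977 to 8149200 in WT, from 6581818 to 10284124 in Ahr-KO and from 8788867 to 12046933 in Ahrr-KO samples.

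S100A8 and S100A9 are small calcium-binding proteins that pair to form calprotectin, which binds zinc and manganese and is one of the most abundant proteins of the neutrophil cytosol. Neutrophils make their granule proteins in sequence while they mature in the bone marrow. Transcripts of granule proteins such as Camp, Ngp and Ltf are high in precursors and low in mature neutrophils, whereas S100a8 and S100a9 transcripts persist in mature cells. In bulk samples, fewer cells of a type and less RNA per cell cannot be told apart.

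The targeted genes were looked at first. Ahr itself was not lower in Ahr-KO samples, where its normalized count (the count divided by the size factor of the library) was 18084 to 26050 against 10766 to 21591 in WT. Known AHR target genes had lower counts in the same samples, with every Ahr-KO sample below every WT sample. Ahrr was at 0 to 9 normalized counts in Ahr-KO and 819 to 1281 in WT, and Cyp1b1, a cytochrome P450 enzyme, was at 1 to 5 against 349 to 1134. Tiparp, an ADP-ribosyltransferase, was at 621 to 1081 against 3467 to 7337. In the samples labelled Ahrr-KO the Ahrr gene was not lower than in WT, at 925 to 1888 normalized counts with a median of 1281 against 1047. Counts were given per gene, and reads from parts of Ahr or Ahrr that a deletion leaves in place are counted too, so these values do not check the labels. Directions given below for Ahrr-KO are those of the samples labelled so.

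Some libraries stood apart before any comparison. WT F3 and Ahr-KO F3 had counts for 20244 and 19694 genes, against 15146 to 17236 in the others, and WT F3 had the lowest total count. Ahr-KO F3 and Ahrr-KO F2 had the highest counts of the granule transcripts Camp, Ngp and Ltf. Results that rest on these libraries, which were picked out after seeing the data, are given with and without them.

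S100a8 and S100a9 lie close together on chromosome 3, S100a8 at chr3:90669071-90670034 on the plus strand and S100a9 at chr3:90692630-90695721 on the minus strand (GRCm38.p6), with 22.6 kb between them. C3 lies at chr17:57203967-57228136. The promoters of these genes are shown because the transcripts were high together in the samples labelled Ahrr-KO. Each window runs 5′ to 3′ on the strand of the gene, from 250 bases before to 50 bases after the annotated start, and comes from RefSeq on GRCm38.p6, which held a promoter for 9 of the 10 genes. The windows are chr3:90668821-90669120 for S100a8, chr3:90695672-90695971 for S100a9 and chr17:57228087-57228386 for C3. Capitals mark matches on either strand to the AHR core GCGTG, a C/EBP-type sequence TTGCNNAA, the AP-1 sequence TGANTCA or the TATA sequence TATAAA, and no matches of different motifs overlapped.
S100a8: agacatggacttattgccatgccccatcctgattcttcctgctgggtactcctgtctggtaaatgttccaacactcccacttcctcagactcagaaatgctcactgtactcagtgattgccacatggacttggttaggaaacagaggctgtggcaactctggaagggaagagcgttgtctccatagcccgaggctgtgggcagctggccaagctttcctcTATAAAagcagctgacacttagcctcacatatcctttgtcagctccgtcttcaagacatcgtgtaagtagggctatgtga
S100a9: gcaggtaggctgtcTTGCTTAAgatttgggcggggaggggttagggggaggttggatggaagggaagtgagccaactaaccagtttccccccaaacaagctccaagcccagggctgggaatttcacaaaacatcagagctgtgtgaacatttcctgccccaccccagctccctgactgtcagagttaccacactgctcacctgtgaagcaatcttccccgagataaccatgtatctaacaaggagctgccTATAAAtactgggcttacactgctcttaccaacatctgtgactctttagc
C3: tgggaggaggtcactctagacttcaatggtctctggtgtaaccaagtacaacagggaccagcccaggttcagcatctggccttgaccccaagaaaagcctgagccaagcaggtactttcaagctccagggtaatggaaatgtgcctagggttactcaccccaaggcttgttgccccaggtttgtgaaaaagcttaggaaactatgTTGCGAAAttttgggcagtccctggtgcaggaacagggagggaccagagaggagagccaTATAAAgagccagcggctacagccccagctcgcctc

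The S100a8 window held a TATA sequence whose first base was at position -30 from the start. The S100a9 window held a C/EBP-type sequence at -236 and a TATA sequence at 1, the first transcribed base of the annotation. The C3 window held a C/EBP-type sequence at -45 and a TATA sequence at 15. The AHR core was in none of the 9 windows, while it was in 32.4% of the 32851 promoters of the same length. The C/EBP-type sequence, found also in the windows of Ngp, Ltf and Retnlg, was in 10.8% of all promoters, the AP-1 sequence in 7.81% and the TATA sequence in 13.6%. A match is a description of letters, and the absence of one says nothing about what a factor binds.

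S100a8 was measured at 63, 98 and 139 normalized counts (lowest, median and highest) in WT and at 57, 101 and 719 in Ahr-KO. In the samples labelled Ahrr-KO the lowest, median and highest were 407, 535 and 1274. Every Ahrr-KO sample lay above every WT sample, and Ahr-KO F3, at 719, was the single library outside the Ahrr-KO group within that group's range. The mean on the deposited log2 scale was 7.30 ± 0.28 (SD, n = 6) in WT, 7.63 ± 1.01 in Ahr-KO and 9.36 ± 0.56 in Ahrr-KO, a difference of 2.06 ± 0.22 (SE) between Ahrr-KO and WT. The mean normalized count was 6.29-fold that of WT.

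S100a9 followed S100a8 closely. Its lowest, median and highest normalized counts were 114, 175 and 310 in WT, 150, 208 and 1069 in Ahr-KO and 678, 867 and 1810 in Ahrr-KO. Again Ahrr-KO and WT did not overlap and Ahr-KO F3 was the highest of its group. The log2 difference between Ahrr-KO and WT was 2.10 ± 0.19 (SE). Within a library, the ratio of S100a9 to S100a8 counts was 1.39 to 2.34 in WT, 1.36 to 3.53 in Ahr-KO and 1.39 to 2.10 in Ahrr-KO, so the ranges of this ratio overlapped between genotypes.

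**Figure D1:**
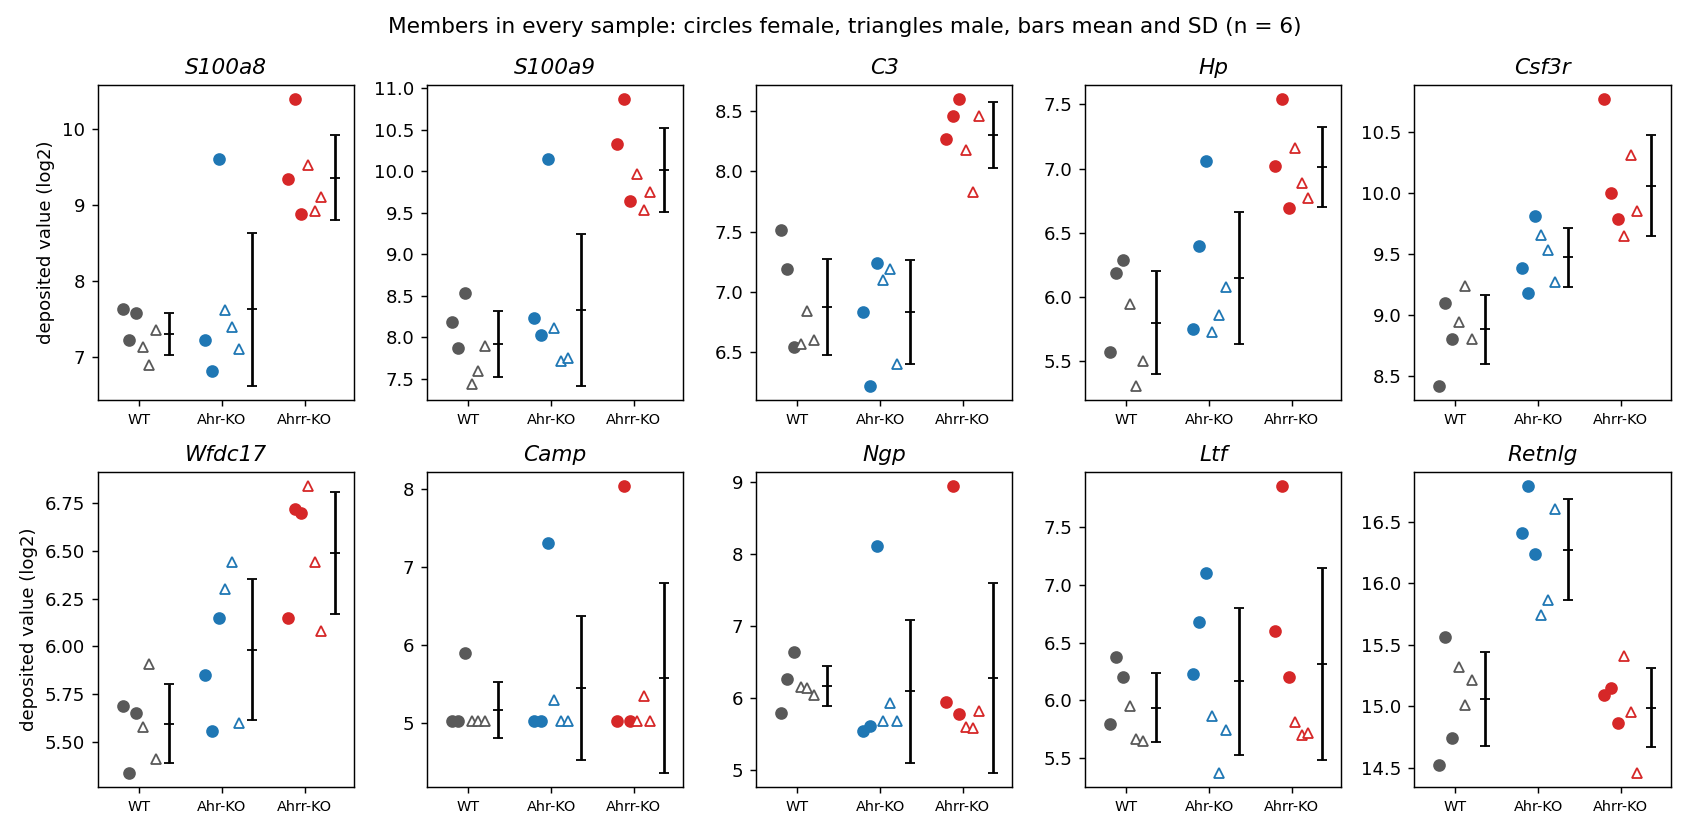
Deposited log2 values of the 10 genes in all 18 samples (vertical axes, scaled per gene), by genotype label (horizontal axis), with circles for females, open triangles for males and bars for the mean and SD of 6 samples. S100a8, S100a9, C3 and Hp are high in all 6 Ahrr-KO samples, Camp and Ngp stand out in Ahr-KO F3 and Ahrr-KO F2, and Retnlg is high in Ahr-KO.

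C3, the central component of complement, had 39, 51 and 123 normalized counts (lowest, median and highest) in WT, 24, 69 and 93 in Ahr-KO and 167, 269 and 327 in Ahrr-KO. Hp encodes haptoglobin, an acute phase protein that binds free haemoglobin and that neutrophils also store. It had 1, 9 and 27 in WT, 8, 15 and 76 in Ahr-KO and 49, 68 and 127 in Ahrr-KO. Both genes were higher in each Ahrr-KO sample than in any WT sample, by 1.43 ± 0.17 (SE) for C3 and 1.21 ± 0.19 for Hp on the deposited log2 scale, which compresses low counts. On the log2(normalized count + 1) scale the differences were 2.07 for C3 and 2.98 for Hp, and the mean normalized counts were 3.95-fold and 6.17-fold those of WT. For Hp, Ahr-KO F3 at 76 was within the Ahrr-KO range, while for C3 the Ahr-KO group as a whole lay below it.

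Csf3r, the receptor for granulocyte colony-stimulating factor, had 280, 406 and 542 normalized counts in WT, 519, 641 and 836 in Ahr-KO and 742, 909 and 1682 in Ahrr-KO. WT and Ahr-KO overlapped, as did Ahr-KO and Ahrr-KO, while WT and Ahrr-KO did not. Wfdc17, a small WAP domain protein, had 2, 6 and 13 in WT, 5, 16 and 34 in Ahr-KO and 18, 42 and 59 in Ahrr-KO. The log2 differences between Ahrr-KO and WT were 1.18 ± 0.20 (SE) for Csf3r and 0.89 ± 0.17 for Wfdc17 on the deposited scale. For Wfdc17 it was 2.62 on the log2(normalized count + 1) scale and 2.66 with voom, and the mean normalized count was 6.61-fold that of WT. Every Ahrr-KO sample lay above every WT sample for 6 of the 10 genes, which the choice of the genes fixes. Of 11546 genes tested, 32 or 0.277% did so.

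Camp, Ngp and Ltf encode granule proteins of neutrophils, the cathelicidin, the neutrophilic granule protein and lactoferrin, and lie within 1.20 Mb of chromosome 9. Camp had no count in 5 WT, 4 Ahr-KO and 4 Ahrr-KO samples. In these 13 libraries a count of 0 allows up to 1.85 to 4.8 normalized counts, which is 3 counts divided by the size factor and covers counting error only. Camp reached 12 normalized counts in WT F3, 101 in Ahr-KO F3 and 202 in Ahrr-KO F2, and the other libraries with a count had 1 and 2.

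Ngp had 9, 21 and 45 normalized counts (lowest, median and highest) in WT, 4, 7 and 216 in Ahr-KO and 5, 10 and 432 in Ahrr-KO. The highest values were those of Ahr-KO F3 and Ahrr-KO F2, and the next highest in these groups were 13 and 14. Ltf had 6, 12 and 30 in WT, 2, 18 and 80 in Ahr-KO and 7, 16 and 172 in Ahrr-KO, again with Ahr-KO F3 and Ahrr-KO F2 highest. Ahr-KO F2 at 48 and Ahrr-KO F1 at 43 were also above every WT value of Ltf. In the other 5 Ahrr-KO libraries Ngp was 5 to 14. S100a8 was 407 to 675 there and above every WT value, which its choice fixes.

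The number of S100a8 counts per Ngp count in the same library needs no scaling between libraries. It was 3.3 in Ahr-KO F3 and 3.0 in Ahrr-KO F2, the libraries with the most Camp, Ngp and Ltf, and 2.9 in WT F3. In the other 5 Ahrr-KO libraries it was 41.6 in F1, 44.1 in F3, 134.3 in M1, 86.7 in M2 and 48.1 in M3. In the remaining WT libraries it was 14.6 in F1, 3.6 in F2, 3.9 in M1, 3.1 in M2 and 6.3 in M3. A ratio near 3 was thus also found in WT libraries with no Camp count, and the WT median was 3.75. In the remaining Ahr-KO libraries the ratio was 8.4 to 21.8. S100a8 was chosen for being higher in Ahrr-KO than in WT, so a higher ratio there follows in part from that choice. The Ngp counts behind these Ahrr-KO ratios were low, at 6 in M1 and M2, 15 in F3 and 16 in F1 and M3. S100a8 counts per Ltf count did not set all of these 5 libraries apart. That ratio was 3.0 to 17.6 in WT and 1.2 to 58.5 in Ahr-KO, where M2 was highest, and in Ahrr-KO it was 13.6 in F1, 7.4 in F2, 17.9 in F3, 67.2 in M1, 57.8 in M2 and 64.2 in M3.

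The differences were also taken without the Ahrr-KO library that had the most granule transcripts. Without Ahrr-KO F2, the log2 difference between Ahrr-KO and WT was 1.87 for S100a8, 1.97 for S100a9, 1.43 for C3 and 1.12 for Hp, and -0.41 for Ngp, 0.12 for Ltf and -0.07 for Camp. With all 6 libraries it was 0.11 for Ngp, 0.38 for Ltf and 0.41 for Camp. On the log2(normalized count + 1) scale these values were -0.34, 0.76 and 0.89, and with voom -0.2, 0.89 and 0.4. The sign for Ngp thus changed with the scale.

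**Figure D2:**
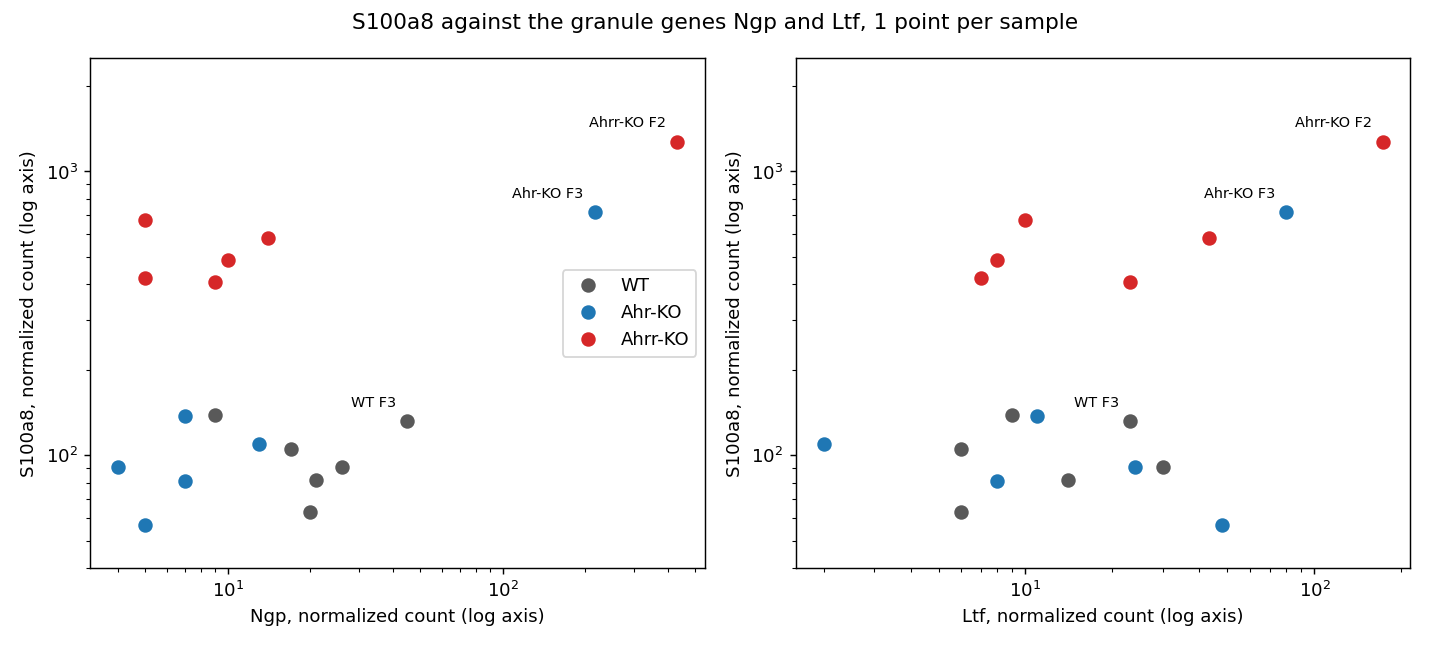
Normalized counts of S100a8 (vertical, log axis) against Ngp (left) and Ltf (right, log axes) with 1 point per sample. Ahr-KO F3 and Ahrr-KO F2 are high in both genes, and 5 Ahrr-KO samples have 407 to 675 counts of S100a8 with 5 to 14 of Ngp.

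Other defining markers of neutrophils did not all behave like the granule genes. Of the 15 markers listed, 4 are among the 10 chosen genes and the other 11 are given here. Ly6g had no count in 5 WT, 5 Ahr-KO and 3 Ahrr-KO samples, and reached 8 normalized counts in WT F3, 7 in Ahr-KO F3 and 10 in Ahrr-KO F2. The primary granule genes Elane, Prtn3 and Ctsg were at 9 or below in every library, and Mpo was at 39 in WT F3 and at most 13 elsewhere. Stfa2l1, a stefin, was at 11 to 21 in all 6 Ahrr-KO samples against 0 to 4 in WT and 0 to 9 in Ahr-KO. Lcn2, a siderophore-binding protein of neutrophil granules that epithelium also makes, was at 20 to 173 in Ahrr-KO, 0 to 29 in WT and 0 to 113 in Ahr-KO, where F3 was highest. Without Ahrr-KO F2 it was 20 to 42 in Ahrr-KO. Cd177 was at 21 to 135 in Ahrr-KO, 8 to 33 in WT and 1 to 56 in Ahr-KO, again with F3 highest. In Ahrr-KO the highest was M3, followed by F2 at 67. The receptor genes Mrgpra2a and Mrgpra2b were at 20 or below throughout. In the 5 Ahrr-KO libraries other than F2, Stfa2l1 and Lcn2 were thus present in each, while Ly6g was at 1 or 0.

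Cxcr2, the chemokine receptor of neutrophils, was the most abundant of these 11 markers, at 430 to 577 normalized counts in WT, 445 to 1110 in Ahr-KO and 517 to 1015 in Ahrr-KO. The summed level of the 11 was 462 to 624 in WT, 454 to 1289 in Ahr-KO and 631 to 1138 in Ahrr-KO, most of it Cxcr2. Of the whole list of 34 neutrophil markers, 33 were in the table, and 12 of the 26 that are not among the chosen genes passed the filter on low values in Ahrr-KO and WT. None of the 12 was called different at an adjusted p below 0.05, where 0.0779% of all genes tested were called higher and 0% lower. No call among so few genes says little about them. Their median log2 difference was 0.39 against 0.01 over all genes tested. Of the 11 defining markers 3 were tested, with a median of 0.70. The filter uses the mean over both groups, so a gene that is high in 1 group can pass through that group, as Lcn2 did here. With no filter, an alternative added after seeing the data, the medians were 0.10 over the 26 genes, 0.10 over the 11 and -0.02 over all genes. The part of neutrophil RNA in the S100a8 and S100a9 levels was not tested.

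Retnlg, a resistin-like protein used as a neutrophil marker, differed from the rest. It had 23350, 35385 and 48259 normalized counts (lowest, median and highest) in WT, 54605, 82172 and 113020 in Ahr-KO and 22535, 33231 and 43356 in Ahrr-KO. All 6 Ahr-KO samples lay above all WT samples, and the Ahrr-KO range lay within or just below that of WT. Per kilobase of exon, Retnlg was at 59152.3 ± 15360.0 normalized counts in WT (SD, n = 6), above every other gene of the set, also in libraries with no count of Camp or Ly6g.

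Per kilobase of exon, the WT level of S100a9 was 362.2 ± 136.1 normalized counts, followed by S100a8 at 147.0 ± 42.4 and Csf3r at 115.5 ± 25.2, and the ranges of the last pair overlapped. The WT levels of Ngp, C3, Wfdc17, Hp, Ltf and Camp, from 18.9 down to 2.70, overlapped between neighbours. In Ahrr-KO the order began with Retnlg at 55787.6 ± 11776.5, S100a9 at 1974.3 ± 821.8, S100a8 at 924.5 ± 470.0 and Csf3r at 289.7 ± 97.3. There the ranges of S100a9 and S100a8 overlapped between libraries, while within each of the 18 libraries S100a9 had more counts than S100a8, from 1.36 to 3.53 per S100a8 count, over a shorter exon length (522 against 694 bases). Without Ahrr-KO F2, which had the highest counts of both, S100a9 was at 1675.5 ± 418.0 and S100a8 at 742.2 ± 163.7 (SD, n = 5) and their ranges did not overlap. Wfdc17, Ngp, C3, Hp and Camp followed at 72.5 to 44.8, again with overlap between neighbours, and Ltf was last at 12.7 ± 18.6. The places of Ngp, Camp and Ltf rested on Ahrr-KO F2, without which they were at 7.1, 0.4 and 5.3, below Wfdc17, C3 and Hp at 68.1 to 40.2, and Camp was last.

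On the same scale in Ahr-KO, Retnlg at 138011.0 ± 38235.4 normalized counts per kilobase was followed by S100a9 at 647.4 ± 689.1, S100a8 at 287.3 ± 369.0 and Csf3r at 181.9 ± 33.4, with ranges that overlapped between libraries, and by the other genes at 34.4 to 8.40. This order rested on Ahr-KO F3. Without it S100a9 was at 367.3 ± 73.3 (SD, n = 5), above Csf3r at 172.0 ± 25.5 and S100a8 at 137.5 ± 43.9 in every library, and the ranges of the last pair overlapped. Ngp went from 34.4 to 6.0 and Camp from 22.4 to 0.3. In WT, Camp was counted in F3 alone, and S100a9 was at 315.9 ± 84.3 without that library.

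The comparison of Ahr-KO with WT was not used to choose the genes, but it shares the WT samples with the one that was, so it is not fully independent of that choice. Values were fitted per gene with limma and adjusted for sex, over genes whose mean was at least 1 above the lowest value of the table, and p was adjusted with the Benjamini-Hochberg method. Of the 10 genes 7 passed this filter, and 2 were called, both higher in Ahr-KO. Over 11346 genes, 585 or 5.16% were called higher and 418 or 3.68% lower, 1003 in all, against 553 with all 18 samples in the fit, 586 without WT F3 and Ahr-KO F3 and 623 without Ahr-KO F1. Retnlg was higher by 1.21 ± 0.24 (SE) on the log2 scale (limma adjusted p = 0.00453, higher in 6 of 6 samples than in any WT sample, which 2.62% of genes tested showed), a 2.33-fold mean normalized count. Csf3r was higher by 0.59 ± 0.14 (limma adjusted p = 0.0145, 5 of 6 samples above every WT sample). Its adjusted p in limma was 0.0606 with all 18 samples in the fit and 0.0637 without WT F3 and Ahr-KO F3.

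S100a8 and S100a9 were not called in Ahr-KO. The differences were 0.33 (95% interval -0.38 to 1.04, limma adjusted p = 0.593) and 0.41 (-0.17 to 1.0, limma adjusted p = 0.396), and they rested on Ahr-KO F3. Without that library they were -0.06 and 0.09. For C3 the difference was -0.05 (-0.49 to 0.40), for Ngp -0.08 (-0.80 to 0.64) and for Ltf 0.23 (-0.15 to 0.61), none of them called. Ltf, below the minimum mean in WT (5.93), passed the filter through the Ahr-KO samples (6.16). Its difference was 0.41 on the log2(normalized count + 1) scale and 0.63 with voom, also with no call. Without Ahr-KO F3, C3 was at -0.12, Ngp at -0.49 and Ltf at 0.10, and Ngp and Ltf were then below the filter and not tested. Hp, Wfdc17 and Camp did not pass the filter. Whether the Ahr-KO and Ahrr-KO differences of S100a8 differ from each other was not tested.

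**Figure D3:**
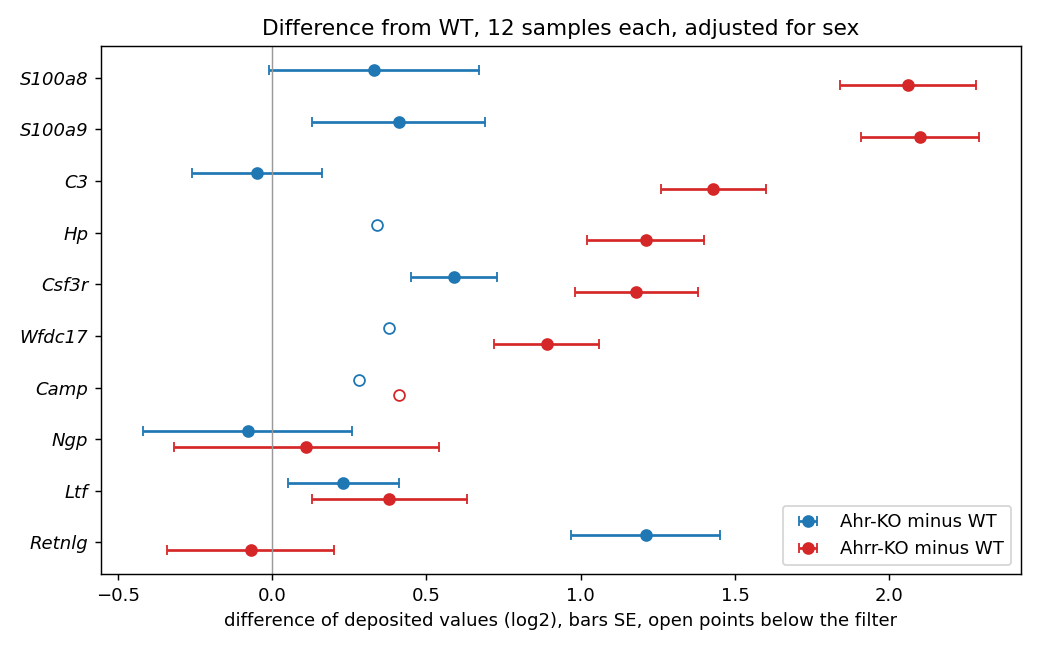
Log2 difference from WT of each gene (horizontal axis) in Ahr-KO (blue) and Ahrr-KO (red), from fits of 12 samples adjusted for sex, with bars for the SE and open points for genes below the filter. S100a8 and S100a9 lie near 2.06 and 2.10 in Ahrr-KO, and Retnlg at 1.21 in Ahr-KO and -0.07 in Ahrr-KO.

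In the comparison of Ahrr-KO with WT, 9 of 11546 genes (0.0779%) were called higher and 0 lower (0%) with limma, with 853 genes at an unadjusted p below 0.05. With so few calls, no call in a list described below says little about its genes. The 9 genes called include 5 of the chosen genes, S100a8, S100a9, C3, Hp and Csf3r, which their choice fixes, so these calls are no test of them. Hp, below the minimum mean in WT (5.8), passed the filter through the Ahrr-KO samples. The other 4 of the 9 were Cd14, Tlr2, St18 and Fam177a2, of which the last 3 are named after their values were seen. With voom on the recovered counts 4 genes were called. In the limma fit of the deposited values 25 genes were called without Ahrr-KO F1, 5 without Ahrr-KO F3 and 4 without each of WT F1, WT F2, WT M2, WT M3, Ahrr-KO F2, Ahrr-KO M2 and Ahrr-KO M3.

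Genes that act with calprotectin were followed as a list of 10, its receptors and the NADPH oxidase among them. In Ahrr-KO 9 were tested and 1 was called higher, against 0.0779% of all genes tested. It was Cd14, the lipopolysaccharide co-receptor that works with Tlr4, at 17 to 69 normalized counts in WT, 42 to 126 in Ahr-KO and 62 to 244 in Ahrr-KO, a difference of 1.09 ± 0.17 (limma adjusted p = 0.0367, 5 of 6 samples above every WT sample). The call held in 4 of 20 alternatives, with limma adjusted p from 0.00163 to 0.317, and the difference was 1.74 on the log2(normalized count + 1) scale and 1.70 with voom. In Ahr-KO 2 of 10 were called higher, against 5.16% of all genes tested. They were Cybb and Cyba of the oxidase, higher by 0.52 ± 0.14 (limma adjusted p = 0.0332) and 0.50 ± 0.14 (limma adjusted p = 0.0394). Both calls were lost in several alternatives, with adjusted p up to 0.132 and 0.178. The most abundant gene of the list was Cybb, at 10794 to 16111 normalized counts in WT.

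The remaining S100 genes, 14 of them in the table without S100a8 and S100a9, gave no call in Ahrr-KO among 8 tested, with a median difference of 0.31, and 0.08 over all 14 with no filter. Without Ahrr-KO F1, S100a6 was called higher in Ahrr-KO, by 0.97 ± 0.16 (limma adjusted p = 0.03). Without Ahr-KO F3 it was called lower in Ahr-KO, by a difference of -0.48 ± 0.13 (limma adjusted p = 0.0415). S100a11 was the most abundant, at 5143 to 7601 normalized counts in WT and 3230 to 10572 in Ahrr-KO. Among complement genes other than C3, 15 were tested in Ahrr-KO with no call and a median of 0.12, and 0.28 over 20 with no filter. Without Ahrr-KO F1, the C1q chains C1qb and C1qc were called higher, by 1.51 ± 0.18 and 1.16 ± 0.14 (limma adjusted p = 0.00225 for each). In Ahr-KO 1 of 14 was called higher, against 5.16% of all genes tested. It was the integrin Itgax, higher by 0.42 ± 0.12 (limma adjusted p = 0.0376, up to 0.186 over the alternatives). Itgam, which encodes CD11b, was the most abundant. Of the acute phase and haemoglobin-scavenging genes 5 were tested in Ahrr-KO apart from Hp and C3, with no call and a median of -0.04 (0.10 over 13 with no filter), and the most abundant was Orm2 in WT and Ahr-KO and Cp in Ahrr-KO. The WAP domain and resistin families had 1 and 2 tested genes there, with no call. Slpi and, apart from Retnlg, Retn were their most abundant genes.

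In the list of granulocyte growth factor receptors and signalling, 16 genes were tested in Ahr-KO, of which Csf3r was higher and 2 were lower. Of all genes tested there, 5.16% were called higher and 3.68% lower. Csf2rb, the shared beta chain of the interleukin 3, interleukin 5 and GM-CSF receptors, was lower by a log2 difference of -1.45 ± 0.12 (limma adjusted p = 1.39e-06), and its paralogue Csf2rb2 by -1.78 ± 0.15 (limma adjusted p = 1.31e-06). The 2 genes are similar in sequence, so reads may have been split between them. In Ahrr-KO none of the 16 genes tested apart from Csf3r was called, with a median of -0.10. Csf2rb was the most abundant in WT, at 4529 to 7566 normalized counts, and in Ahrr-KO, and Jak1 in Ahr-KO.

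Among neutrophil markers in Ahr-KO, 16 were tested, 5 were called higher and 1 lower. The shares over all genes tested were 5.16% higher and 3.68% lower. Beside Retnlg and Csf3r, Trem1 was higher by 0.93 ± 0.19 (limma adjusted p = 0.00569), Trem3 by 0.85 ± 0.15 (limma adjusted p = 0.00146) and Cxcr2 by 0.65 ± 0.16 (limma adjusted p = 0.0198). Mmp8, a collagenase of neutrophil granules, was lower, at -0.92 ± 0.20 (limma adjusted p = 0.00677). With 41.3 normalized counts on average in WT against 8.7 in Ahr-KO, Mmp8 passed the filter through the WT samples. Its difference was -2.81 on the log2(normalized count + 1) scale and -3.10 with voom, and it was below the filter, and so not tested, without WT F3, without WT F3 and Ahr-KO F3, and with a minimum mean of 3. Without Ahr-KO F3 the differences of Trem1, Trem3, Cxcr2 and Mmp8 were 0.83, 0.82, 0.53 and -1.07, and the limma adjusted p of Cxcr2 was 0.06 with voom (0.00124 to 0.06 over the alternatives). Il1r2 was the most abundant of the list apart from the chosen genes, at 1683 to 8320 normalized counts in WT.

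The labelled cell type was checked against 12 eosinophil markers, whose summed level was 31283 to 47344 normalized counts in WT, 45891 to 58055 in Ahr-KO and 17634 to 47800 in Ahrr-KO. Alox15 was the most abundant, followed by Ccr3, with means of 16771.6 and 12434.1 normalized counts in WT. Epx, the eosinophil peroxidase gene, was at 3 to 24 in every library. In Ahr-KO 2 of 7 tested were called higher, against 5.16% of all genes tested. They were Prg2, the major basic protein of the granule, by 2.30 ± 0.17 (limma adjusted p = 3.47e-07), and Alox15 by 0.58 ± 0.15 (limma adjusted p = 0.023, up to 0.157 over the alternatives). In Ahrr-KO none of 7 was called and the median was -0.29, and -0.13 over all 12 with no filter. Ahrr-KO F3 and M3 had the lowest sums, 26321 and 17634.

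Markers of other cells differed between the Ahrr-KO libraries. The summed level of 16 epithelial markers was 12418 to 37036 normalized counts in WT and 11440 to 17364 in Ahr-KO. It was above the WT range in Ahrr-KO F3 at 48539, M1 at 67766 and M3 at 68549 and within it in M2 at 33160. In Ahrr-KO F1 and F2 the sum was 17445 and 14697, also within the WT range. S100a8 was 585 and 1274 in these libraries, C3 was 248 and 291 and Hp was 73 and 127. These genes were chosen for being higher in Ahrr-KO, and F2 had the most Camp, Ngp and Ltf. The most abundant epithelial gene was Pigr, the polymeric immunoglobulin receptor, in WT and Lyz1, a lysozyme of Paneth cells, in Ahr-KO and Ahrr-KO.

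The 15 monocyte and macrophage markers summed to 1078 to 1443 in WT, 1192 to 2000 in Ahr-KO and 1957 to 2312 in Ahrr-KO except F1, which was at 1059. Csf1r was the most abundant of them in each group. Lymphocyte and mast cell markers summed to 251 to 1810 in WT, mostly Jchain of plasma cells, and 118 to 798 in Ahr-KO. In Ahrr-KO they were above the WT range in F2 at 5502, F3 at 3835, M1 at 6223 and M3 at 4192 and within it in F1 at 339 and M2 at 910.

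Fibroblast and endothelial markers summed to 2652 to 3894 in WT and 2510 to 3955 in Ahrr-KO. In Ahr-KO the sum was 1954 to 2400, with every sample below every WT sample. Most of the sum was Pecam1, except in Ahrr-KO M3, where Pecam1 made up 1566 of 3363. Dcn, the decorin gene of fibroblasts, was at 5 to 21 in WT and 7 to 30 in Ahr-KO. In Ahrr-KO it was at 5 in F1, 12 in F2, 227 in F3, 132 in M1, 23 in M2 and 497 in M3, so 4 of the 6 were above every WT library.

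With all libraries no gene of these 4 lists was called in Ahrr-KO, where 0.0779% of all genes tested were called higher and 0% lower. With shares this low, no call in a short list says little about its genes. The numbers tested were 16 epithelial, 13 monocyte and macrophage, 3 lymphocyte and mast cell and 8 fibroblast and endothelial genes, with medians of 0.64, 0.55, 0.62 and 0.65 against 0.01 over all genes. Of these, 0, 6, 2 and 1 were below the minimum mean in WT and passed the filter through the Ahrr-KO samples, Dcn, Ms4a7 and Cd4 among them. With no filter the medians were 0.64, 0.47, 0.18 and 0.76 over the 16, 15, 13 and 10 genes in the table.

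The calls in these lists moved with 1 library. Without Ahrr-KO F1, 3 of 13 monocyte and macrophage genes were called higher, C1qb, C1qc and Ms4a7 (0.88 ± 0.15, limma adjusted p = 0.0314), and 1 of 3 lymphocyte and mast cell genes, Cd4 (0.90 ± 0.13, limma adjusted p = 0.00833). These genes and S100a6 are named after their values were seen, and no other alternative gave a call in these 4 lists. Of the genes called, Ms4a7 and Cd4 were below the minimum mean in WT and passed the filter through the Ahrr-KO samples.

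In Ahr-KO, Csf1r was called higher (0.49 ± 0.10, limma adjusted p = 0.00693) and Cd68 lower (-0.49 ± 0.15, limma adjusted p = 0.0486, up to 0.129 over the alternatives). Muc2 (-1.12 ± 0.20, limma adjusted p = 0.00174, and 0.201 with all 18 samples) and Pecam1 (-0.63 ± 0.10, limma adjusted p = 0.00116) were lower, and no lymphocyte or mast cell marker was called. Of the 22 alternatives in Ahr-KO, Siglecf was called higher in 6, Cd14 higher and Krt20 lower in 2 each, and Ccr2 and Il3ra higher in 1 each, which are named after their values were seen. In Ahrr-KO F1 the sum of macrophage markers was just below the WT range and those of epithelial and lymphocyte markers within it. Of the defining markers of neutrophils, Cxcr2 at 1015, Ltf at 43, Lcn2 at 32 and Stfa2l1 at 16 normalized counts were above every WT library in Ahrr-KO F1. The other defining markers were not. S100a8, S100a9, C3 and Hp were above every WT library in Ahrr-KO F1 too, which their choice fixes. The part of RNA from other cells in these values was not tested in any library.

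**Figure D4:**
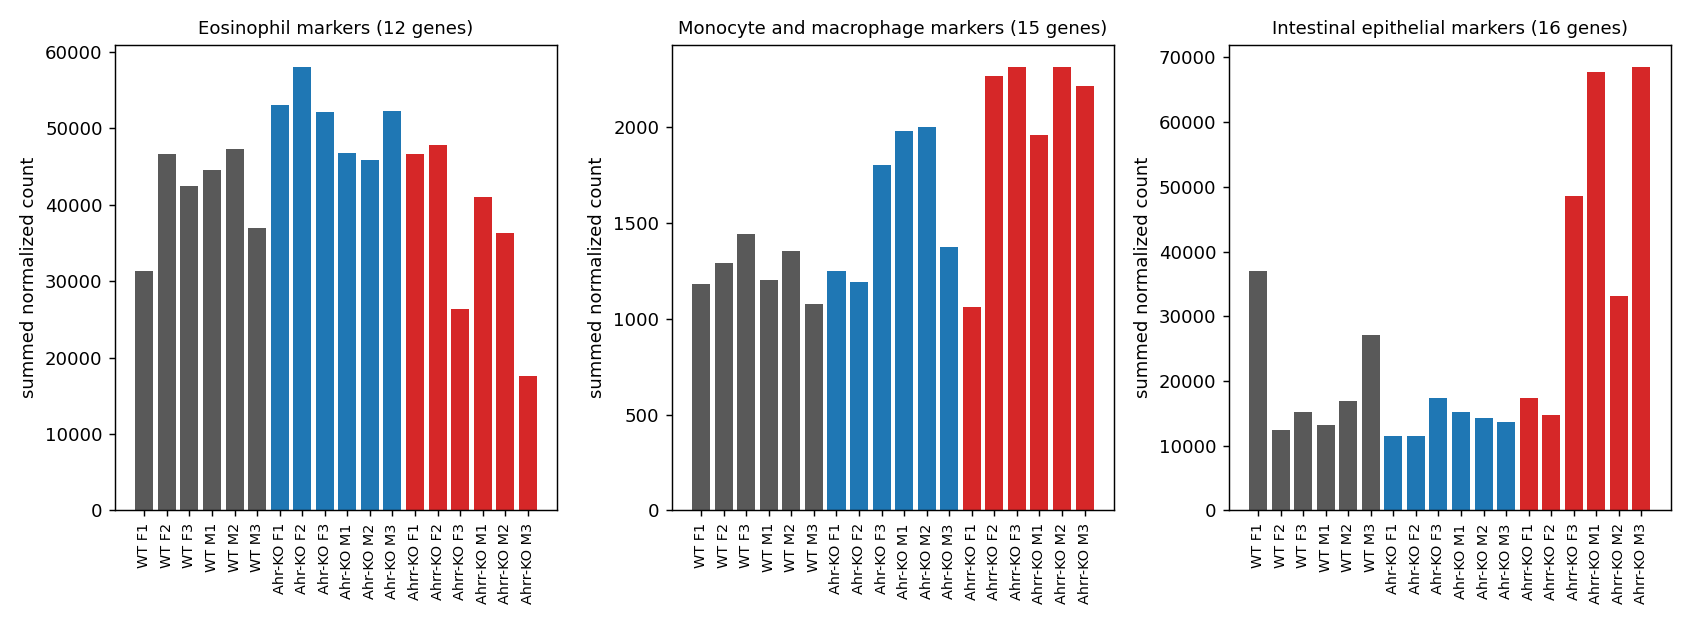
Summed normalized counts (vertical axes, from 0) of 12 eosinophil, 15 monocyte and macrophage and 16 intestinal epithelial marker genes, with 1 bar per sample and WT in grey, Ahr-KO in blue and Ahrr-KO in red. Epithelial markers are above the WT range in Ahrr-KO F3, M1 and M3 and macrophage markers in all Ahrr-KO samples but F1 and in Ahr-KO F3, M1 and M2.

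The genes most like S100a8 were described over the 18 samples. With the genotype means subtracted, the 5 highest Pearson correlations outside the set were with Prss12 (r = 0.84), Mknk2, Snord118 and Bax (each r = 0.83) and Rpa2 (r = 0.82), beside 0.92 for S100a9, 0.83 for Camp and 0.82 for Ngp. These values rest on the libraries with the most granule transcripts. Without Ahr-KO F3 and Ahrr-KO F2, over 16 samples, r was 0.62 for S100a9, 0.30 for Camp, 0.10 for Ngp and 0.21 to 0.59 for the 5 genes. C3, Hp, Csf3r and Ltf had r of 0.46, 0.68, 0.19 and 0.60 over the 18 samples and 0.41, 0.06, -0.10 and -0.17 over the 16. Wfdc17 had 0.34 over each, and Retnlg had -0.13 over the 18 and -0.41 over the 16. Without subtraction, where differences between genotypes enter the values, the closest were Cfp, which encodes properdin of the complement system (r = 0.84), Cope (r = 0.82), Lcmt2 and Atp6v0c (each r = 0.80) and Bst1 (r = 0.79). Values of the chosen genes on that scale follow in part from their choice and are not given. The samples share their genotype groups, so these are descriptions with no p.

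Sex was not used to choose the genes. Over all 18 samples with genotype as covariate, 9 of the 10 genes passed the filter, Hp and Wfdc17 through the Ahrr-KO samples, since they were below it over the WT and Ahr-KO samples together. Of the 9, 1 was called, lower in males, where 282 of 11468 genes (2.46%) were lower and 69 (0.602%) higher. These 351 calls became 733 without WT F1, 595 without WT M1 and 577 without Ahrr-KO F3. They numbered 142 to 211 without any 1 of WT F2, WT M3, Ahr-KO F1, F2, M1, M2 and M3, and Ahrr-KO F1, F2 and M3, and with voom 208 of 402 were higher. The gene called was Ltf, which passed the filter through the females, with genotype means of 6.12 to 6.89 on the deposited log2 scale. In males these means were 5.66 to 5.75, below the minimum. Ltf differed between males and females by -0.84 ± 0.19 (limma adjusted p = 0.021, 0.00714 to 0.0504 over the alternatives, the last without WT F3 and Ahr-KO F3). It was -2.16 both on the log2(normalized count + 1) scale and with voom, and -0.68 without Ahrr-KO F2. Without Ahr-KO F3 and Ahrr-KO F2 it was -0.59, and Ltf was then below the filter and not tested, as it was with a minimum mean of 3. The difference for S100a9 was -0.68 ± 0.22 (limma adjusted p = 0.105) and for S100a8 -0.40 ± 0.27 (limma adjusted p = 0.444). For S100a8 it was -0.15 without Ahr-KO F3, and without Ahr-KO F3 and Ahrr-KO F2 it was -0.0016, and -0.37 for S100a9. Without Ahrr-KO F3 the adjusted p of S100a9 was 0.0451. Genotype by sex in WT and Ahrr-KO gave 0 calls among 11546 genes (0%) with limma, also with voom, and 544 at an unadjusted p below 0.05. The lowest adjusted p of a chosen gene was 0.727, and Hp, Wfdc17 and Ltf, below the minimum mean in WT, passed the filter through the Ahrr-KO samples.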

How the data were processed

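RNA of sorted small intestinal eosinophils was sequenced in 18 samples as single-ended reads. According to the methods, the authors aligned to GRCm38, counted genes with nf-core/rnaseq and used DESeq2, and the submitters' processing notes name RSEM 1.3.0, STAR 2.5.2 and R 4.0.3. The deposited values are variance-stabilized and on a log2 scale, and 5.02, the lowest, corresponds to no reads. Inverting the transformation gave whole numbers for 100% of entries within 0.0001, with a deviation of at most 3.9e-08. The recovered counts gave depth and normalized counts, which are counts divided by the recovered size factor of each library.

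The deposited values were fitted with limma 3.58.1 in R 4.3.3 (linear model with mean-variance trend, sex as covariate, Benjamini-Hochberg adjustment, threshold 0.05), keeping genes that averaged 1 or more over 5.02. Named genes were the 10 chosen, the called genes of 14 lists with at most 6 per list, their most abundant genes and defining markers, and the 5 genes most correlated with S100a8. The genes and lists were chosen with earlier results of these data known. Alternatives changed the filter, normalization, scale, test, samples, covariate and each library. No pair of libraries in a group agreed within sampling noise (lowest chi-square per gene 7.82). The sources describe the WT and Ahr-KO samples as separate mice and do not say so for Ahrr-KO, where p-values measure the spread between these samples, which may be technical. Exon lengths came from GENCODE mouse release M21. No exon of the chosen genes overlapped another gene.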

Additional observations from a re-analysis of the deposited data

Results flagged for a closer look

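In groups of 6 samples, 7 values lay far from the rest of their group among 30 groups examined, where chance alone gives about 1 group in 20. That rate does not apply to Camp, where 4 or 5 of the 6 libraries in a group had no count. Genes of the same library are also not separate draws, so the 7 values cannot be set against that rate as 7 separate events. In Ahr-KO F3 the values far from the rest were S100a8 at 9.61, S100a9 at 10.15, Camp at 7.31 and Ngp at 8.11 on the deposited log2 scale, each the highest of its group. In Ahrr-KO F2 they were Camp at 8.04 and Ngp at 8.95, and in WT F3 it was Camp at 5.90, where the other 5 WT samples had no count. The gap to the next sample was 0.71 of the whole range for S100a8 and 0.789 for S100a9. S100a8 and S100a9 in Ahrr-KO F2 did not stand apart from their group in this way. Why these libraries stand apart was not tested.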

How the results depend on the processing

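Every member's difference between Ahrr-KO and WT was a description. For S100a8 it was 2.57 on the log2(normalized count + 1) scale and 2.55 with voom, and 1.87 to 2.20 when each library was left out in turn, and for S100a9 it was 1.97 to 2.43 over all alternatives. The cause was not tested. In Ahr-KO, S100a8 changed sign without Ahr-KO F3 (-0.0632) and without WT F3 and Ahr-KO F3 (-0.0105, chosen after seeing the data), ranged from -0.0632 to 0.5591 when each library was left out, and was not called under any alternative (limma adjusted p 0.347 to 0.982). S100a9 ranged from 0.0931 to 0.563. C3 changed sign without WT F1 (0.0815), WT F2 (0.009), Ahr-KO F2 (0.1052) or Ahr-KO M3 (0.0357), with a range of -0.1409 to 0.1052 when each library was left out and -0.2565 with voom, and Ngp without Ahr-KO F1 (0.086) or Ahr-KO F2 (0.0695), with a range of -0.2081 to 0.086 where it passed the filter, and was -0.49 without Ahr-KO F3, where it did not. It was -0.6828 on the log2(normalized count + 1) scale and -0.7574 with voom, also with no call. Retnlg was called in all 22 alternatives and Csf3r in 20 of 22.

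Genes called between Ahr-KO and WT numbered 1003, against 553 with all 18 samples in the fit and 586 without WT F3 and Ahr-KO F3, and 623 to 1124 when each library was left out. Between Ahrr-KO and WT they numbered 9, against 4 with no minimum mean, median centring, log2(normalized count + 1) or voom, 5 with a minimum mean of 3 or quantile normalization, 14 with all 18 samples, and 4 to 25 when each library was left out. With the replicate block in place of sex the counts were 918 for Ahr-KO and 4 for Ahrr-KO. The replicate numbers did not pair the samples, since the correlation of same-numbered deviations ran from -0.592 to 0.335 between WT and Ahrr-KO and exceeded 0.1 in 3 of 6 pairs, and from -0.265 to 0.473 between WT and Ahr-KO, in 1 of 6. Between males and females 351 genes were called, against 163 with no minimum mean and 118 without Ahr-KO F3 and Ahrr-KO F2, also chosen after seeing the data, and 142 to 733 when each library was left out. Higher in males were 69 of these, and 208 of 402 with voom. The cause was not tested. Counts of genotype by sex were 0 in all 18 alternatives. Genes near a count of 0, such as Camp, Ly6g and Elane, are limited by depth.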
